A study of Mus musculus with 6 samples.

Results

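Fbln2, Pde10a, Ets1 and Nsf are 4 genes in which at least 1 exon-level probe set changed very differently from the rest of the gene. The change is that seen when Smoothened (Smo) was lowered in OP9 stromal cells. In Pde10a a second probe set also departed from the rest by 2-fold or more, in the opposite direction. The 4 genes were chosen from the measured differences, so their own differences are given below as a description, with no test. The members are the 109 probe sets whose only gene symbol in the platform annotation is one of these names, out of 318760 probe sets with 1 symbol and 1256831 in the table. A level filter kept the 103 whose 6-array mean reached 6.56 on the log2 scale, the median over the whole table, and 6 were dimmer.

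OP9 is a mouse bone marrow stromal line. One stable line carried a lentiviral pLKO.1-Puro hairpin against Smo, the signal-transducing receptor of the Hedgehog pathway (Smo shRNA, 3 arrays), and the other a scrambled hairpin (control shRNA, 3 arrays). Both therefore carry the integrated vector, both were kept below confluence, and RNA of each was prepared in triplicate. Whether a line is a pool or 1 clone, and how many hairpin sequences were used, is not given in the sources. The labels do not call the triplicates separate cultures, so errors and p-values cover only the spread among RNA preparations, which may be technical. A trait of a line and an effect of its hairpin cannot be told apart here. Values are log2 hybridization signals deposited by the authors, and a difference is Smo shRNA minus control shRNA on that scale. In bulk RNA, fewer cells with a transcript and less transcript per cell cannot be told apart.

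Smo itself was at 11.32, 11.36 and 11.44 on the Smo shRNA arrays, against 12.29, 12.22 and 12.24 on the control arrays (log2 difference -0.88, SE 0.04, limma adjusted p = 1.22e-09). Across all 16923 genes tested, 38.6% passed the limma threshold of an adjusted p of 0.05, so a change between these lines was common. Of the probe sets for 12 mesenchymal stromal markers, 335 of 353 were kept. The counts were 81 of 178 for haematopoietic, 52 of 88 for epithelial and 96 of 192 for endothelial markers. Over all probe sets with 1 gene symbol, 245574 of 318760 were kept. Thy1 was near the dim end in both lines (7.39 in Smo shRNA and 7.27 in control cells), and none of the 5 Lum probe sets was kept. Of 11 tested stromal markers 9 fell by limma, against 17.4% of all genes tested. Among the 9 were Cxcl12 (-0.72), Kitl (-0.69), Col1a2 (-0.46) and Pdgfra (-0.34). The tested markers of the other classes differed by -0.09 to 0.11, with adjusted p of 0.236 or more.

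Exon arrays tile a gene with short groups of probes, called probe sets, most of them placed in single exons, so a transcript variant can show as a probe set that departs from its neighbours. The 4 genes act in unrelated processes. Fbln2 codes for fibulin-2, a secreted glycoprotein of basement membranes and elastic fibres that binds fibronectin, laminins and nidogen. Pde10a codes for a phosphodiesterase that breaks down cAMP and cGMP and is best known from the striatum of the brain, where transcripts with different first exons give enzymes with different amino ends. Ets1 is the founding member of the ETS transcription factors, which bind DNA through a GGAA core, and a human splice variant lacks the exon for part of its inhibitory region. Nsf codes for the ATPase that takes spent SNARE complexes apart after membrane fusion.

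The RefSeq gene table of GRCm38.p6 places Fbln2 on chromosome 6, Ets1 on chromosome 9, Nsf on chromosome 11 and Pde10a on chromosome 17. It lists 3 curated and 8 predicted transcripts for Pde10a, 2 curated and 3 predicted ones for Fbln2, 6 curated ones for Ets1 and 1 for Nsf. The genes thus range from several annotated variants to a single one. The annotation used here pairs a probe set with a gene only, so the exon that each probe set reads, and its order along the gene, are not given below.

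RefSeq start windows were found for 3 of the 4 genes, and only Pde10a had 2 of them. Both are shown because Pde10a had the widest spread among its probe sets and alternative first exons are its known form of variation. Each window of 300 bases spans an annotated start and reads 5′ to 3′ on the plus strand of GRCm38.p6. Capitals mark the ETS core GGAA on either strand (GGAA or TTCC).
Pde10a, chr17:8801495-8801794: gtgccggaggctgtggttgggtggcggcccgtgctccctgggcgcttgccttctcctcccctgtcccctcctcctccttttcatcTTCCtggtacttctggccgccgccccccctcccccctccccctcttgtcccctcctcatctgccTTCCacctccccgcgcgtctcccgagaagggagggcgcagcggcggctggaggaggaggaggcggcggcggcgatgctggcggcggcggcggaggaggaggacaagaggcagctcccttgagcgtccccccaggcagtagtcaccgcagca
Pde10a, chr17:8849735-8850034: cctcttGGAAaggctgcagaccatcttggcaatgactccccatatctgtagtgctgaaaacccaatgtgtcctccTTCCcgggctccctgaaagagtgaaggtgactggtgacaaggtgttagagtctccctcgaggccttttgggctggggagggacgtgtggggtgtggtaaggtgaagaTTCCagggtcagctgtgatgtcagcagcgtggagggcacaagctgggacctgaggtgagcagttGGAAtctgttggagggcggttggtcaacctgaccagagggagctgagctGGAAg
The first window is 71.3% G or C and holds 2 matches to the core, and the second is 56.7% G or C and holds 5. Of 32851 windows of 300 bases in the table, 96.0% hold at least 1 match, with a median of 3, so a match is common among promoters. The array values do not say which start was used.

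For every kept probe set, the deviation is its difference minus the median difference of the other kept probe sets of its gene. Over 14446 genes with 5 or more kept probe sets, 1220 of 231829 probe sets (0.526%) deviated by 1 or more, that is 2-fold or more, in either direction. The 103 kept member probe sets held 1 such probe set each in Fbln2, Ets1 and Nsf and 2 in Pde10a, a count that the choice of the genes fixes. Exactly 1 probe set at that size was seen in 418 genes (2.89%). In Pde10a the second of its 2 probe sets deviated in the opposite direction to the first.

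**Figure D1:**
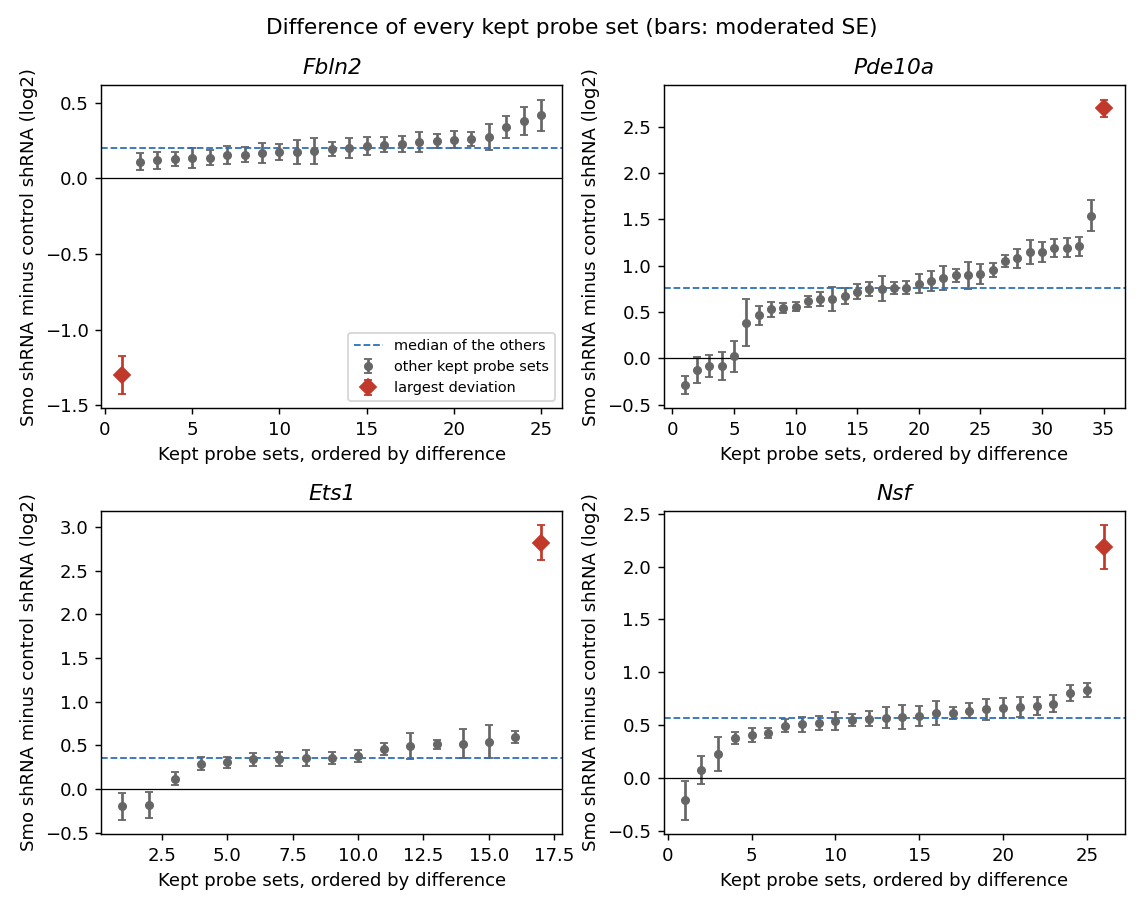
Log2 difference, Smo shRNA minus control shRNA, of every kept probe set of the 4 genes, ordered by size, with moderated SE bars. The red diamond is the most deviating probe set, which lies at -1.30 in Fbln2, 2.70 in Pde10a, 2.82 in Ets1 and 2.18 in Nsf, and the dashed line is the median of the others.

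In Fbln2, probe set 5038321 was lower in Smo shRNA cells while the rest of the gene was slightly higher. It read 8.74, 8.41 and 8.48 on the Smo shRNA arrays, against 9.81, 9.81 and 9.91 on the control arrays. The groups did not overlap, and the lowest control array was more than 1 log2 unit above the highest Smo shRNA array. Its mean was 8.54 ± 0.17 in Smo shRNA cells and 9.84 ± 0.06 in control cells (SD, n = 3 each), a difference of -1.30 (SE 0.12) or 2.46-fold lower. The other 24 kept probe sets all had positive differences, from 0.11 to 0.42, with a median of 0.20 and quartiles of 0.16 and 0.25.

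The deviation of 5038321 was -1.50, which is 2.82-fold. Taken per array against the control mean, it was -1.30, -1.62 and -1.59 in Smo shRNA cells, against -0.04, 0.00 and 0.04 in control cells. The next largest deviations in Fbln2 were 0.23 (4426177) and 0.19 (4448323), so no other probe set came near it. Probe set 4426177 read 10.82, 10.61 and 10.72 on the Smo shRNA arrays, against 10.25, 10.13 and 10.51 on the control arrays. The interquartile range of the 24 other differences was 0.09, from bright probe sets with means of 10.16 to 13.07. The median over all genes with 5 or more kept probe sets was 0.17. That median counts every kept probe set of a gene, also dimmer ones, so the comparison is a rough one.

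Fbln2 was summarised from 25 kept probe sets, of which 24 had groups that did not overlap, against 41.0% of all kept probe sets. Its gene value, a median polish that gives little weight to a single probe set, was 12.01, 12.01 and 12.03 on the Smo shRNA arrays, against 11.84, 11.81 and 11.87 on the control arrays. The gene difference was 0.18 (SE 0.03), and 0.19 without probe set 5038321. The 1 dim Fbln2 probe set, 5464081, differed by -0.29, with values of 5.40, 4.95 and 5.55 in Smo shRNA cells, against 5.92, 5.36 and 5.49 in control cells, which overlap.

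In Pde10a the direction was the opposite, and probe set 4645357 was far higher in Smo shRNA cells, in a gene that was itself higher. It read 11.39, 11.44 and 11.50 on the Smo shRNA arrays, against 8.76, 8.63 and 8.85 on the control arrays. The groups did not overlap, and the arrays of each line lay close together. The means were 11.44 ± 0.06 in Smo shRNA cells and 8.75 ± 0.11 in control cells (SD, n = 3 each), a difference of 2.70 (SE 0.10) or 6.50-fold higher. Its deviation was 1.94, a 3.85-fold excess over the rest of the gene, and per array 1.90, 1.95 and 1.97 in Smo shRNA cells, against -0.01, -0.06 and 0.06 in control cells.

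The other 34 kept Pde10a probe sets ranged from -0.29 to 1.54, with a median of 0.76. Their interquartile range of 0.40 was the widest of the 4 genes. The median gene had 0.17, there with every kept probe set counted. At the low end stood 4582517, with values of 9.79, 9.89 and 10.03 in Smo shRNA cells, against 10.22, 10.16 and 10.19 in control cells. The groups did not overlap, and its deviation was -1.05, or 2.07-fold. Pde10a is thus not a gene with a single deviating probe set at this size.

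Probe set 4761111 read 8.40, 8.40 and 8.40 in Smo shRNA cells, against 8.60, 8.63 and 8.37 in control cells, and deviated by -0.89. Its groups overlapped through the lowest control array. Of the 35 kept Pde10a probe sets 31 had positive and 4 negative differences, and 30 had groups that did not overlap (41.0% of all kept probe sets). The gene value was 10.54, 10.55 and 10.62 in Smo shRNA cells, against 9.81, 9.72 and 9.83 in control cells, a difference of 0.78 (SE 0.05), and 0.77 without 4645357. The 17 dimmer of the other probe sets had a median difference of 0.83 and the 17 brighter ones 0.75. Differences ran from -0.29 to 1.54 among the dimmer ones and from 0.47 to 1.15 among the brighter ones.

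**Figure D2:**
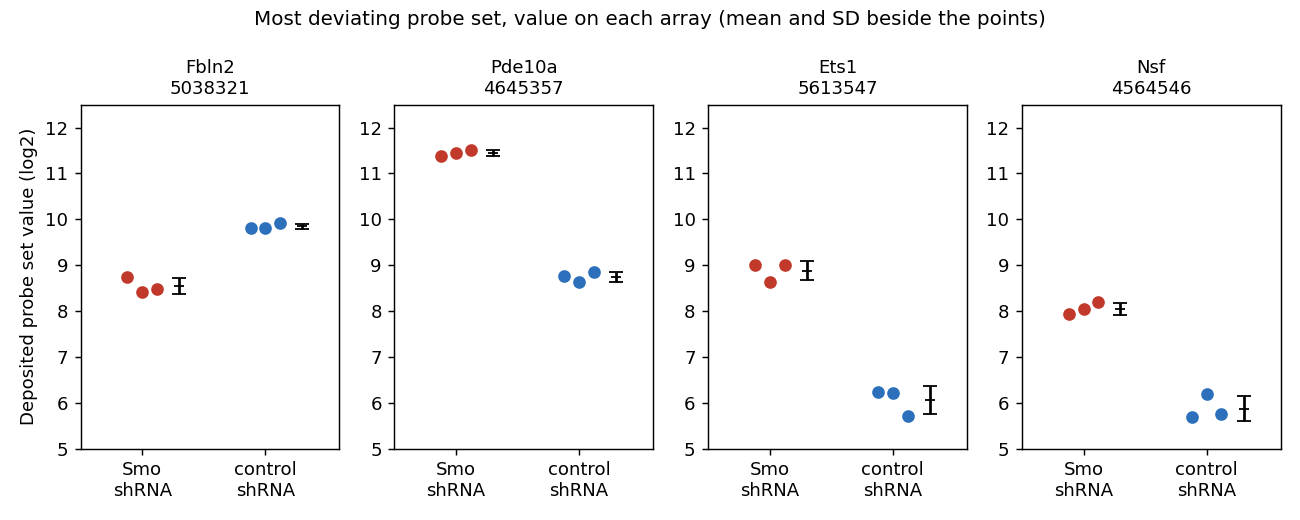
Deposited log2 value of the most deviating probe set of each gene on each array, Smo shRNA (red) left and control shRNA (blue) right, with the mean and SD (n = 3) beside the points. The 3 Smo shRNA arrays lie below all control arrays in Fbln2 and above all of them in Pde10a, Ets1 and Nsf.

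In Ets1 the deviating probe set was dim in control cells and higher in Smo shRNA cells. Probe set 5613547 read 9.00, 8.64 and 9.00 on the Smo shRNA arrays, against 6.24, 6.22 and 5.71 on the control arrays. Every control value lay under the level filter of 6.56, and every Smo shRNA value well above it. The means were 8.88 ± 0.21 in Smo shRNA cells and 6.06 ± 0.30 in control cells (SD, n = 3 each), a difference of 2.82 (SE 0.20). Whether the control level stood above background is not known without a detection call, so the size of the difference is uncertain and no fold is given. It passed the filter only through the Smo shRNA arrays.

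The deviation of 5613547 was 2.47, with the same limit, and per array 2.60, 2.22 and 2.57 in Smo shRNA cells, against 0.14, 0.20 and -0.36 in control cells. The other 16 Ets1 probe sets ran from -0.20 to 0.60 with a median of 0.35 and quartiles of 0.30 and 0.50. The next largest deviations were both negative, -0.56 (4892219) and -0.55 (4691080). Probe set 4892219 read 8.26, 8.09 and 8.11 in Smo shRNA cells, against 8.45, 8.47 and 8.12 in control cells, and its groups overlapped.

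All 17 Ets1 probe sets were kept, and 15 had groups that did not overlap, each of them higher in Smo shRNA cells, as did 23.6% of all kept probe sets. The gene value was 11.17, 11.11 and 11.17 in Smo shRNA cells, against 10.84, 10.73 and 10.81 in control cells. The gene difference was 0.35 (SE 0.04), and 0.34 without 5613547, or 0.47 when probe sets were averaged instead of polished. The 8 brighter of the other probe sets differed by 0.29 to 0.60, whereas the 8 dimmer ones ran from -0.20 to 0.54.

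Nsf resembled Ets1 in that its deviating probe set was dim in control cells. Probe set 4564546 read 7.93, 8.05 and 8.19 on the Smo shRNA arrays, against 5.69, 6.18 and 5.75 on the control arrays. The lines did not overlap, and all 3 control values were under the filter, which the probe set again passed only through the Smo shRNA arrays. The means were 8.05 ± 0.13 in Smo shRNA cells and 5.87 ± 0.27 in control cells (SD, n = 3 each), a difference of 2.18 (SE 0.21). The Smo shRNA mean lay within the gene values of the haematopoietic markers in those cells (7.55 to 8.32). Whether the probe set stood above background in either line is not known without a detection call. As in Ets1, the size is uncertain and no fold is given. Its deviation was 1.61 and per array 1.55, 1.62 and 1.69 in Smo shRNA cells, against -0.20, 0.37 and -0.18 in control cells.

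The remaining 25 kept Nsf probe sets had differences from -0.21 to 0.83 with a median of 0.57 and quartiles of 0.50 and 0.65. Probe set 5392917 deviated by -0.79 and read 7.14, 7.26 and 7.05 in Smo shRNA cells, against 7.46, 7.37 and 7.24 in control cells. Its highest Smo shRNA array reached above the lowest control array. Probe set 4572104 deviated by -0.50, with 9.08, 8.86 and 8.97 in Smo shRNA cells, against 8.77, 8.83 and 9.08 in control cells. Both had overlapping groups, and their differences were -0.21 and 0.08.

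Of the 26 kept Nsf probe sets 23 had groups that did not overlap, all higher in Smo shRNA cells, as did 23.6% of all kept probe sets. The gene value was 11.19, 11.27 and 11.32 in Smo shRNA cells, against 10.70, 10.63 and 10.77 in control cells, a difference of 0.56 (SE 0.05), and 0.55 without 4564546. The 12 brighter of the other probe sets differed by 0.39 to 0.83, and the 13 dimmer ones by -0.21 to 0.70. In all 4 genes the gene value was higher in Smo shRNA cells, with Pde10a highest in difference, then Nsf, Ets1 and Fbln2.

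**Figure D3:**
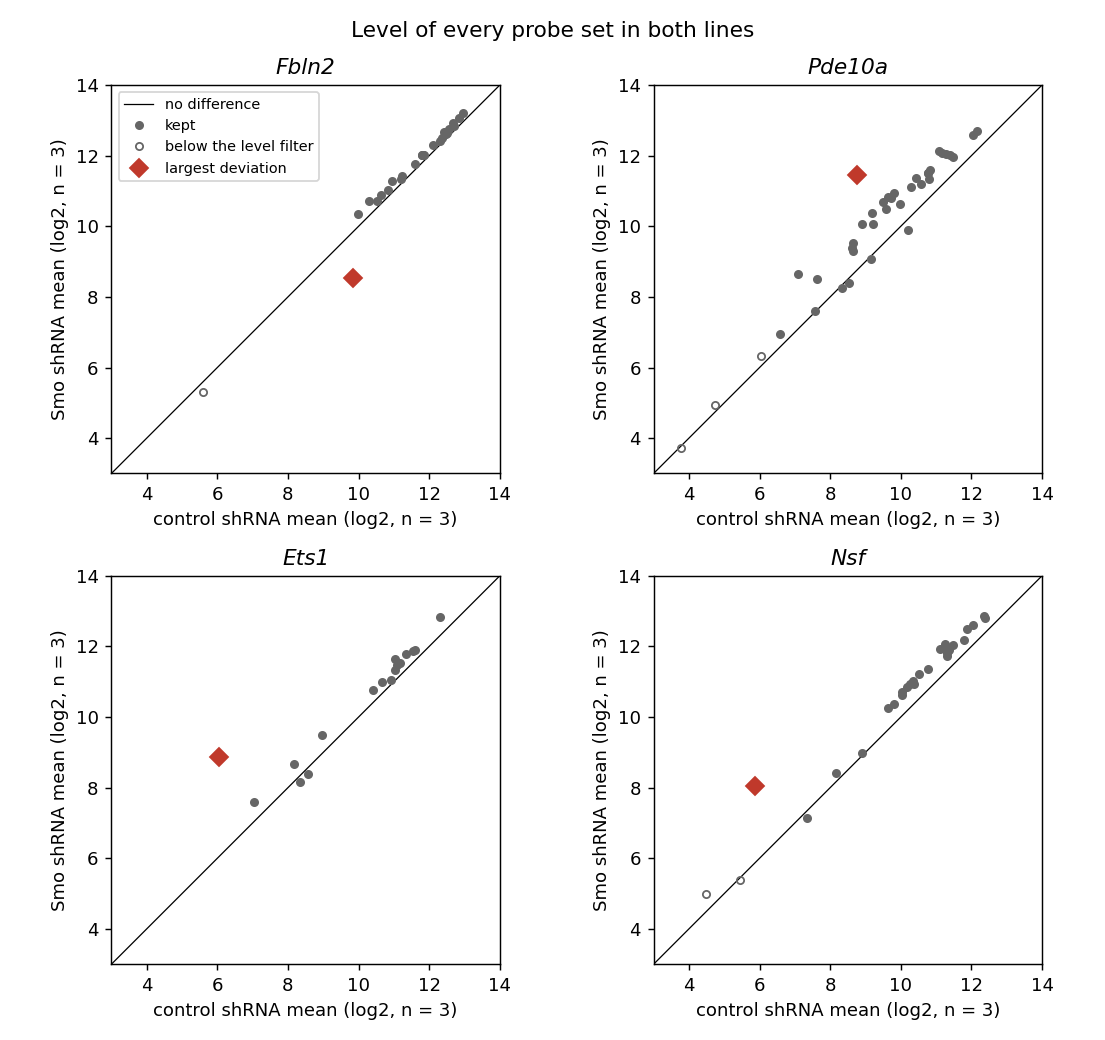
Mean log2 level of every probe set of the 4 genes, control shRNA (x axis) and Smo shRNA (y axis), n = 3 arrays each, with open circles for the 6 probe sets below the level filter and a line of no difference. The red diamonds of Ets1 and Nsf stand at control means of 6.06 and 5.87, left of every other kept probe set of their genes.

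The level filter separated the members as follows. Just inside it were 4570143 of Pde10a (mean 6.76, difference 0.38) and 4564546 of Nsf (6.96, the deviating probe set), followed by 5392917 of Nsf (7.25) and 5091789 of Ets1 (7.31). Just outside it were 4580989 of Pde10a (6.19, difference 0.27), 5464081 of Fbln2 (5.45) and 5411147 of Nsf (5.41, difference -0.08). The deviating Nsf probe set is thus among those nearest to the threshold.

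How far a deviating probe set stood from the next one in its gene varied. The median gene with 5 or more kept probe sets had a largest deviation of 0.41 and a gap of 0.09 to its second largest. Ets1 ranked 21 of 14446 by the largest deviation but 2 by the gap, which was 1.90. Fbln2 ranked 170 by size and 22 by the gap of 1.27. Pde10a ranked 49 by size and 81 by the gap (0.89), and Nsf 127 by size and 113 by the gap (0.82). These ranks use the values that chose the genes and describe their place only. The Ets1 and Nsf probe sets passed the level filter only through the Smo shRNA arrays, and neither was kept with the stricter filter. The size of their deviations is uncertain, and so are the ranks of Ets1 and Nsf.

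The 5 other genes with the largest deviations had several such probe sets each. Mgam had 5 of 22 at 2-fold or more, Aldh1a1 6 of 13, Prkg1 13 of 24, Chrdl1 16 of 16 and Cd209c 20 of 22. Their largest deviations ran from -3.60 in Mgam to 3.44 in Prkg1. That Prkg1 probe set itself differed by only 0.16, in a gene whose value fell by 3.19. In these 5 genes the probe sets disagreed among themselves widely.

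**Figure D4:**
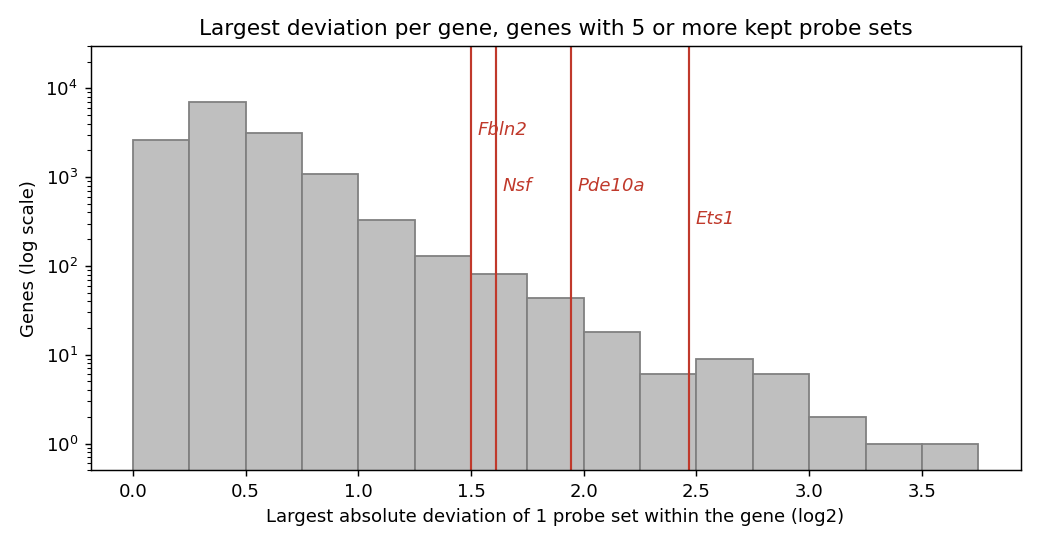
Number of genes (log scale) by the largest absolute deviation of 1 probe set, for 14446 genes with 5 or more kept probe sets, with red lines at Fbln2 (1.50), Nsf (1.61), Pde10a (1.94) and Ets1 (2.47). The median gene lies at 0.41. The sizes for Ets1 and Nsf are uncertain, since their control values lay under the level filter.

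By Pearson correlation of gene values over the 6 arrays, the genes most like Fbln2 were Faxc and Hbegf (r = 1.000 each), and those most like Pde10a were Alg13 and Reps1 (r = 1.000 each). Epha2 and Irx2 (r = 0.999 each) were nearest to Ets1, and Bop1 and Dnajc7 (r = 1.000 each) to Nsf. With 2 lines of 3 arrays such an r mainly reflects the step between the lines, and 202 to 587 genes reached 0.99 or more with each of the 4. Faxc differed by 0.72 and Hbegf, a ligand of the EGF receptor, by 1.11, against 0.18 for Fbln2, so a like pattern did not mean a like size.

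Genes related to the 4 were taken from lists of relatives and partners, tested at the gene level over all 16923 genes by limma with Benjamini-Hochberg adjustment. In the background 21.2% of genes passed as higher and 17.4% as lower, with a median difference of 0.01.

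**Figure D5:**
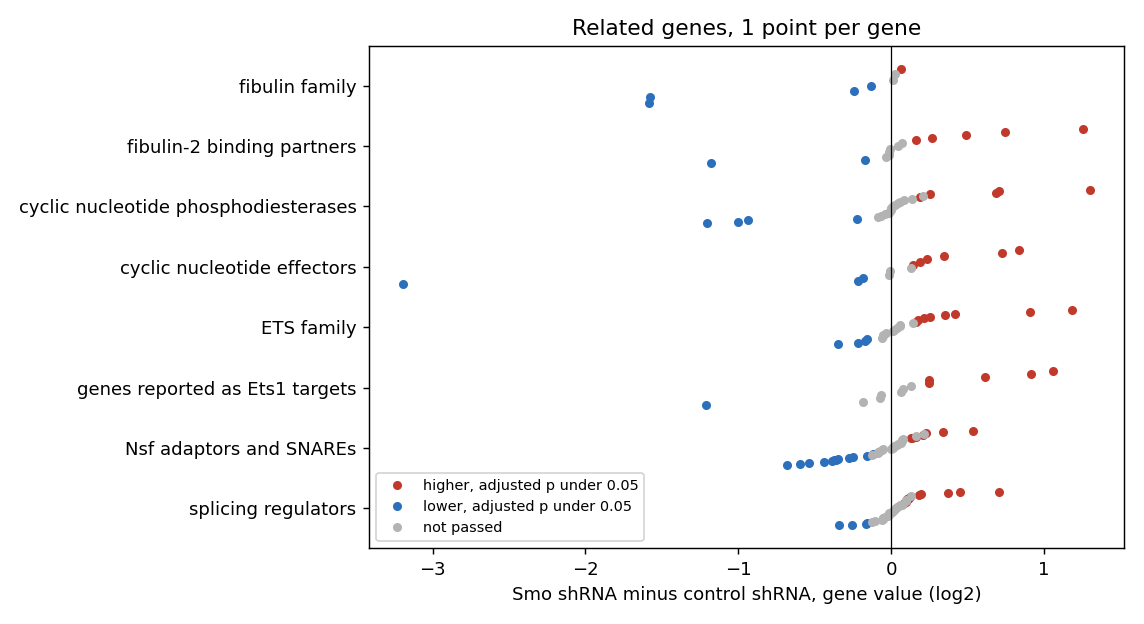
Gene-level log2 difference, Smo shRNA minus control shRNA, of each tested gene in the 8 lists of relatives and partners, red where higher and blue where lower at an adjusted p under 0.05, grey where not passed. In the fibulin family 4 of 7 genes were called lower, and in the ETS family 8 of 22 were called higher and 4 lower.

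Most other members of the fibulin family fell in Smo shRNA cells. Of 7 tested, 4 fell, 1 rose and 2 did not pass, with a median difference of -0.13. Fbln5, needed for elastic fibre assembly, was 9.41 ± 0.06 in Smo shRNA cells and 10.99 ± 0.11 in control cells (SD, n = 3 each, limma adjusted p = 4.46e-10), and Fbln7 was 9.18 ± 0.05 in Smo shRNA cells and 10.77 ± 0.20 in control cells (SD, n = 3 each, limma adjusted p = 5.89e-09). Efemp2, also called fibulin-4, fell by 0.25 (SE 0.02, limma adjusted p = 8.76e-07) and Fbln1 by 0.13 (SE 0.03, limma adjusted p = 0.00583). The Fbln1 call was lost without control replicate 1 (limma adjusted p = 0.0665) and without control replicate 3 (0.0665), and without control replicate 3 only 3 of the 7 genes passed. Hmcn2 differed by 0.02 (limma adjusted p = 0.861), and by 0.00 with dim probe sets included. In the same arrays 9 of 11 stromal markers fell, collagen genes among them, and the part of this in the fibulin values was not tested.

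Among 13 tested binding partners of fibulin-2, 5 rose, 2 fell and 6 did not pass (median 0.05). The laminin chains Lama5 and Lamb1 rose by 1.26 (SE 0.05, limma adjusted p = 4.63e-10) and 0.74 (SE 0.06, limma adjusted p = 5.13e-07). The nidogens, which link laminin to collagen IV, moved apart, with Nid2 lower by 1.18 on the log2 scale (SE 0.05, limma adjusted p = 1.72e-09) and Nid1 higher by 0.27 (SE 0.02, limma adjusted p = 4.1e-07). Fbn1, fibrillin-1, differed by 0.07 and did not pass (limma adjusted p = 0.0898), or by 0.02 without control replicate 1.

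Other phosphodiesterases changed in both directions. Of 23 tested, 5 rose, 4 fell and 14 did not pass (median 0.01). Pde8b, specific for cAMP, was 2.47-fold higher (1.30, SE 0.06, limma adjusted p = 3.48e-09), or 0.84 on the log2 scale with dim probe sets included. The cGMP-specific Pde5a fell by 1.00 (SE 0.05, limma adjusted p = 8.57e-09) and the calmodulin-activated Pde1b and Pde1a by 1.21 and 0.94 (limma adjusted p = 4.22e-08 and 5.93e-08). Pde4d differed by 0.08 and did not pass (limma adjusted p = 0.08). Its value was 0.03 with dim probe sets included, 0.05, 0.04 and 0.03 without Smo shRNA replicate 1, control replicate 1 or control replicate 2, and 0.13 without Smo shRNA replicate 3, where it was called (limma adjusted p = 0.019). Among 12 kinases and other effectors of cAMP and cGMP, 6 rose, 3 fell and 3 did not pass (median 0.14), or 5 called in all without control replicate 1. The cGMP kinase Prkg1 fell by 3.19 (SE 0.08, limma adjusted p = 4.5e-12), and by 2.70 with dim probe sets included. Its mean of 6.68 in Smo shRNA cells, against 9.87 in control cells, lay close to the level filter, and its probe sets disagreed as given above, so the size of the fall is uncertain. Its relative Prkg2 rose by 0.84 (SE 0.07, limma adjusted p = 7.18e-07), and by 0.33 with dim probe sets included (limma adjusted p = 0.0046). The control mean of Prkg2, 8.12, lay within those of the haematopoietic markers (7.51 to 8.41), so the size of its rise is uncertain. Prkar2a and Prkar2b, regulatory subunits of the cAMP kinase, rose by 0.72 and 0.24 (limma adjusted p = 7.96e-09 and 9.55e-05), and Creb1 differed by 0.13 (limma adjusted p = 0.0511), or by 0.04 without control replicate 2.

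In the ETS family, 8 of 22 tested relatives of Ets1 rose, 4 fell and 10 did not pass (median 0.05), or 7 called in all without control replicate 1. The highest differences among the 4 with the smallest p were those of Etv1 (1.18, SE 0.05, limma adjusted p = 1.09e-09) and Etv4 (0.91, SE 0.06, limma adjusted p = 7.79e-08), followed by Etv5 (0.42) and Etv6 (0.36). Etv1, Etv4 and Etv5 together form the PEA3 subfamily. The control mean of Etv4, 7.94, lay within that of the haematopoietic markers (7.51 to 8.41), so the size of its rise is uncertain. Ehf differed by 0.14 and did not pass (limma adjusted p = 0.202), with 0.09 without Smo shRNA replicate 1 and 0.05 with dim probe sets included. Of 12 genes reported as targets of Ets1, 5 rose, 1 fell and 6 did not pass (median 0.10). Only 5 were called in all whichever 1 array was left out. Plau, the urokinase gene, rose by 1.06 (SE 0.06, limma adjusted p = 1.9e-08), the receptor gene Met by 0.92 (SE 0.06, limma adjusted p = 9.97e-08) and Spp1, osteopontin, by 0.25 (SE 0.02, limma adjusted p = 2.64e-07), or by 0.38 with averaged probe sets. The collagenase gene Mmp13 fell by 1.21 (SE 0.11, limma adjusted p = 8.66e-07). Its mean of 7.49 in Smo shRNA cells, against 8.70 in control cells, was near the dim end, so the size of the fall is uncertain. Mmp9 differed by -0.19 (limma adjusted p = 0.0563). The Mmp9 value was -0.12 and -0.09 without Smo shRNA replicates 2 and 3 and -0.03 without control replicate 1.

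The partners of Nsf in membrane fusion changed in both directions. Of 38 tested adaptors, SNAREs and SNARE-binding proteins, 12 fell, 7 rose and 19 did not pass (median 0.00), or 12 and 11 called in all without Smo shRNA replicates 1 and 2. The Golgi SNAREs Stx5a and Bet1l fell by 0.54 (SE 0.04, limma adjusted p = 3.1e-07) and 0.68 (SE 0.06, limma adjusted p = 6.81e-07), Snap47 by 0.36 and Sec22b by 0.39 (limma adjusted p = 2.15e-06 and 2.68e-06). Napb, one of the adaptors that bring Nsf to SNAREs, differed by 0.21 and did not pass (limma adjusted p = 0.084). The Napb value was 0.08 without Smo shRNA replicate 3, 0.13 without control replicate 2 and 0.33 with the stricter filter, where it was called (limma adjusted p = 0.0101).

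Among 40 tested splicing regulators, proteins that steer exon choice, 11 rose, 4 fell and 25 did not pass (median 0.03). The 4 with the smallest p were Ptbp3 (0.37, SE 0.03, limma adjusted p = 1.48e-07), Rbm47 (0.71, SE 0.08, limma adjusted p = 5.49e-06), Rbm38 (0.45, SE 0.06, limma adjusted p = 2.78e-05) and Hnrnpa2b1, which fell by 0.26 (SE 0.05, limma adjusted p = 0.000998). Rbm47 was dim in control cells, with a mean of 7.74, so the size of its rise is uncertain. Srsf11 differed by -0.13 (limma adjusted p = 0.0611), by -0.07 without Smo shRNA replicate 2 and by -0.23 with averaged probe sets, where it was called (limma adjusted p = 0.00409). In place of 15, between 8 and 9 genes passed when any 1 of the 6 arrays was left out, and 8 without a variance trend. Whether any of these proteins bears on the deviating probe sets was not tested.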

How the data were processed

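Total RNA of 2 stable OP9 lines was hybridized to 6 exon arrays (Affymetrix Mouse Exon 1.0 ST), per the labels. The deposited table holds the authors' log2 value per probe set. The values themselves gave the log2 scale, and array medians lay between 6.56 and 6.59. How signals were background-corrected, summarised and normalized is not stated. The number of arrays limits the precision, and no detection call was used.

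Gene symbols came from the platform annotation. Of 22296 symbols, 18006 were current in RefSeq (GRCm38.p6) and 3993 were updated through a synonym of 1 gene. Gene values were median polishes of 3 or more kept probe sets, and the lines were tested by limma 3.58.1 under R 4.3.3 (lmFit, eBayes with a variance trend, two-sided, Benjamini-Hochberg, threshold 0.05, no replicate block). Deviations used genes with 5 or more kept probe sets. The calculation was tested on simulated data.

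The members and lists were chosen with earlier results of these data known. Named besides the members are Smo, the 5 other genes with the largest deviation (gene models passed over), the 2 genes most correlated with each member, and per list up to 4 called genes with the smallest p and 1 not called. List members under 3 kept probe sets were not analysed here. Alternatives changed the level filter, summary, probe set minimum, normalization, variance trend, replicate block, comparison within the gene and arrays left out. Replicate numbers were not taken as pairs of arrays.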

Additional observations from a re-analysis of the deposited data

How the results depend on the processing

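The deviations kept their direction in every alternative that gave a value. The genes were chosen for these deviations in the same arrays, so the kept direction is a description and lends no support. With the stricter filter (7.59) the deviating probe sets of Ets1 and Nsf were not kept and gave no value. Set against the 4 kept probe sets nearest in level, the deviation was -1.63 in Fbln2, 1.65 in Pde10a and 2.03 in Nsf, and with the mean of the other probe sets it was 1.99 in Pde10a. Ets1 had a value in 10 alternatives, these among them, and none moved its deviation by more than the replicate spread. Leaving out 1 array gave -1.59 to -1.45 in Fbln2, 1.93 to 1.97 in Pde10a, 2.28 to 2.57 in Ets1 and 1.51 to 1.83 in Nsf. Probe sets deviating 2-fold or more numbered 2303 without the filter, 718 with the stricter one and 1299 to 1441 without 1 array. The filter also sets how many probe sets are counted, so counts under different filters do not compare as shares. Genes past the threshold numbered 4817 to 5543 without 1 array (2672 to 2918 higher, 2089 to 2786 lower).

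With the replicate block 6939 genes passed, against 6537, and Napb (limma adjusted p = 0.0223), Creb1 (0.047), Mmp9 (0.0319) and Srsf11 (0.0418) were called. Each of these genes also passed under at least 1 other alternative, as did Pde4d. Deviations from the group means correlated at 0.08, 0.10 and 0.39 for arrays of the same number and -0.37 to 0.31 for others. The numbers were not taken as pairs. The value of replicate 3 lay above all others, and whether its arrays were handled together is not known. Of 532 comparisons of a named related gene or Smo with an alternative, 514 kept their side of the threshold, 16 gained a call, 2 lost it and 0 reversed. Member gene differences kept their direction. Leaving out 1 array gave 0.17 to 0.19 in Fbln2, 0.70 to 0.80 in Pde10a, 0.31 to 0.40 in Ets1 and 0.51 to 0.59 in Nsf, and averaging probe sets gave 0.15, 0.76, 0.47 and 0.59 in the same order. Of 56 such values 6 moved by more than the replicate spread (3 in Pde10a, 2 in Ets1, 1 in Fbln2). The gene value without the deviating probe set was an alternative chosen after seeing the data.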
